A study of Mus musculus with 23 samples.

Results

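The genes described here are 5 markers of immature and transitional B cells in the mouse, Vpreb3, Myb, Cd24a, Cd93 and Sox4. They were taken by symbol from 2 tables of expression values, 1 of naive B cells (11548 genes) and 1 of cultured B cells (10574 genes), and all 5 have a value in both. The study measured polyA RNA of sorted spleen B cells in 23 libraries of 8 groups (cDNA by SMART-seq v4, sequencing libraries by Nextera XT). Naive KO cells had Thy1.1 on their surface and carried sgRNA 1 or sgRNA 2, both aimed at Irf8, and the naive WT cells of each guide arm lacked Thy1.1 and carried no guide (3 libraries in each of these 4 groups). Both came from a sort for B220 without CD11b, F4/80 and Thy1.2. Activated B cells (GL7-positive and CD138-negative, 3 KO and 3 WT libraries) and plasmablasts (CD138-positive with B220 or intermediate B220, 3 KO and 2 WT libraries, called plasma cells in the cell type label) were sorted after 72 hours with LPS and 2 cytokines. IL-5 was used at 5 ng/ml, and IL-2 at 20 ng/ml. The LPS dose is labelled as 20 mg/ml. All cultured KO libraries carried sgRNA 1, and genotype, guide and Thy1.1 sort go together in every group, so that these cannot be told apart. The labels give no age, sex or strain, and do not say how the guide entered the cells. Titles of the cultured libraries carry an m with the library number, and KO and WT libraries of both stages share these numbers. What the m stands for is not given, and the main fit took no pairing from it. The labels do not state which libraries share an animal or culture, so p-values measure the spread between these libraries.

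B cells leave the bone marrow as immature cells and pass through transitional stages in the spleen before they become follicular or marginal zone B cells. Vpreb3 is an endoplasmic reticulum protein that binds newly made immunoglobulin chains in precursor and immature cells. CD93, the antigen seen by the AA4.1 antibody, and CD24, the heat-stable antigen encoded by Cd24a, are surface markers by which transitional cells are sorted, and CD93 is also carried by plasma cells. Myb and Sox4 encode transcription factors that early B cell precursors need. IRF8, the target of the guides, is a transcription factor of B cells and myeloid cells that binds DNA with partners of the ETS family.

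All positions are on GRCm38.p6, the assembly called mm10. Vpreb3 lies on chr10:75943024-75949657 and overlaps the pseudogene Gm16221. Myb lies on chr10:21124930-21160984 and Cd24a on chr10:43579169-43584265. Cd93 lies on chr2:148436651-148443535, and Sox4 lies on chr13:28948919-28953699 and overlaps the long noncoding RNA Gm46405. Whether the authors' counting used strand is not given in the sources used here, so reads of an overlapping partner cannot be told from those of Vpreb3 or Sox4.

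Promoter sequences, from RefSeq for GRCm38.p6, were matched for 3 of the 5 genes, and the 250 bases before the start of Vpreb3, Myb and Sox4 are shown. No promoter sequences of Cd24a and Cd93 were available here. The 3 genes shown had lower averages in naive KO than in naive WT libraries, and so did Cd93. The windows are chr10:75948050-75948299 on the plus strand, chr10:21160985-21161234 on the minus strand and chr13:28953700-28953949 on the minus strand, and that of Vpreb3 lies inside the annotated span of the gene. Capitals mark the motif matches found on either strand.
Vpreb3: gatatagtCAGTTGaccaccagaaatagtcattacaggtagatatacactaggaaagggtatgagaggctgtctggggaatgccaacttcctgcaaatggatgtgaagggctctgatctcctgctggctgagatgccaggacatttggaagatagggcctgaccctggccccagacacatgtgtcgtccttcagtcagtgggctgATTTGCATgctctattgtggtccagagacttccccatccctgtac
Myb: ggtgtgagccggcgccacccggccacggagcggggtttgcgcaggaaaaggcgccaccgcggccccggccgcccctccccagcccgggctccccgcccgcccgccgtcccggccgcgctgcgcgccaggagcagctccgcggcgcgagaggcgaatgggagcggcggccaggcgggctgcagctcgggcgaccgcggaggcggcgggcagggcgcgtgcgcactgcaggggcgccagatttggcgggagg
Sox4: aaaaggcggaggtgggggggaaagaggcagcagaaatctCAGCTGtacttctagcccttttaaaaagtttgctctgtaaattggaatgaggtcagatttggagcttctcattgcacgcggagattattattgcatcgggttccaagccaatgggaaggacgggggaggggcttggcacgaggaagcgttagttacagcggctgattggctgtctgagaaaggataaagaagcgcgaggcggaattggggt
The Vpreb3 window holds an E-box (CAGNTG) at bases -242 to -237 and an octamer (ATTTGCAT) at bases -45 to -38, counted back from the start. The Sox4 window holds an E-box at bases -211 to -206, and the Myb window, with 81.2% G and C against 50.4% in Vpreb3 and 50.8% in Sox4, holds none of the motifs searched. The other motifs searched were the ETS-IRF composite element (GGAA, any 2 bases, GAAA), the core of the interferon response element (GAAA, any 2 bases, GAAA) and an EBF1 site (TCCC, any 2 bases, GGGA), searched on both strands, and their letters are in none of the 3 windows. Of 32851 promoter windows of the same length, 44.8% hold the E-box, 1.60% the octamer, 2.30% the composite element, 2.98% the interferon element and 0.779% the EBF1 site. The octamer was added to the search after the sequence had been read, and a match is a description of letters, not of binding.

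The values are RPKM, read numbers scaled to gene length and to the total that each library had on genes. Reads assigned to genes, estimated from the steps between low values, were 14500000 to 22200000 in the naive libraries and 4300000 to 26900000 in the cultured libraries other than plasmablast KO 3, which had 51000. Thy1, which should follow the Thy1.1 sort, was at 8.88 to 22.1 RPKM in the naive KO libraries and at 0.052 RPKM or less in the naive WT libraries other than guide 1 arm WT A, at 4.93 RPKM. In the cultured table, Thy1 was at 0.093 RPKM in the library labelled activated KO 3 and at 25.7 RPKM in the library labelled activated WT 3. The other cultured KO libraries held 21.9 to 40.7 RPKM of Thy1 and the other cultured WT libraries 0.013 to 0.142 RPKM, so these 2 libraries go against their labels. Naive guide 1 KO A also stands apart, with 1405 genes at 0 against 66 to 291 in the other naive libraries, and results are given with and without these libraries. Irf8 itself averaged 59.7 ± 12.6 RPKM in naive KO libraries and 90.6 ± 6.57 RPKM in naive WT libraries (SD, n = 6 each; log2 difference -0.61, limma adjusted p = 0.00412). Within guide 1 its log2 difference was -0.46 and did not pass (limma adjusted p = 0.0703), and within guide 2 it was -0.77 (limma adjusted p = 0.0427). In culture Irf8 averaged 76.6 ± 13.8 RPKM in activated KO and 87.3 ± 24.8 RPKM in activated WT libraries (n = 3 each; log2 difference -0.16, limma adjusted p = 1.0). In plasmablasts it averaged 21.0 ± 3.37 RPKM in KO (n = 3) and 21.1 ± 4.99 RPKM in WT libraries (n = 2; limma adjusted p = 0.994). Plasmablast KO 3 holds 11 reads of it. With all libraries, limma thus detected no lower Irf8 RNA in the cultured libraries labelled KO, which are called KO by their label. Activated KO 1 and 2 held 69.2 and 68.1 RPKM of Irf8, below activated WT 1 and 2 at 108 and 93.6 RPKM. The libraries labelled activated KO 3 and activated WT 3 went the other way, at 92.412 and 59.998 RPKM. No test of Irf8 without these libraries is given here.

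In naive B cells with an Irf8 guide, Vpreb3 fell, and Myb was also called lower, though in only 6 of 18 alternative settings. Sox4 and Cd93 had lower averages that did not pass the test, and Cd24a had nearly the same level. Over both guides, Vpreb3 averaged 32.1 ± 12.5 RPKM in KO libraries and 78.2 ± 20.7 RPKM in WT libraries, and Myb averaged 2.10 ± 1.67 RPKM in KO libraries and 7.16 ± 3.41 RPKM in WT libraries (SD, n = 6 each). Differences were tested with limma on log2(RPKM + 1), a scale that understates the change of genes near or below 1 RPKM, and a gene was called at an adjusted p under 0.05 over all 10137 genes tested. By this rule 2 of the 5 genes were called lower and none higher, against 0.858% of all tested genes called lower. In bulk samples, fewer cells of a type and less RNA per cell cannot be told apart, here and in each comparison that follows.

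Vpreb3, the immunoglobulin chaperone, was the most highly expressed of the 4 genes with a lower average in naive KO libraries. With guide 1 the KO libraries A, B and C held 22.3, 32.6 and 15.8 RPKM, against 71.1, 80.0 and 107 RPKM in the WT libraries of the same arm. With guide 2 the KO libraries held 31.4, 38.7 and 51.4 RPKM, against 64.3, 96.2 and 50.6 RPKM in the WT libraries. The groups do not overlap in the guide 1 arm, and in the guide 2 arm only KO C reached the range of the WT libraries, above WT C. No gene of the 5 was fully separated over both guides, as 0.927% of tested genes were with all KO libraries below all WT libraries, and for Vpreb3 5 of 6 KO libraries lay below every WT library. Over both guides the log2 difference was -1.31 (SE 0.20, limma adjusted p = 0.00745). Within guide 1 it was -1.86 (SE 0.28, limma adjusted p = 0.0119), where 0.523% of genes were called lower, and this call is lost without guide 1 arm WT C (log2 difference -1.69, limma adjusted p = 0.0760). Within guide 2 it was -0.76 (SE 0.28, limma adjusted p = 1.0).

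Myb, a factor of precursor proliferation and survival, was also lower in every guide 1 KO library. It was at 2.88, 0 and 2.00 RPKM in the guide 1 KO libraries A, B and C, against 6.68, 10.3 and 12.4 RPKM in the WT libraries of that arm. In the guide 2 arm the KO libraries held 0.759, 2.21 and 4.75 RPKM, against 5.24, 3.91 and 4.53 RPKM in the WT libraries. All guide 1 KO libraries lie below all WT libraries of that arm, and guide 2 KO C lies within the range of its WT libraries. The 0 in guide 1 KO B stands for no read, which allows up to 0.0321 RPKM (3 reads), against 243 and 231 estimated reads in guide 1 KO A and C; such limits cover counting error only. Over both guides the log2 difference was -1.50 (SE 0.35, limma adjusted p = 0.0486), just under the threshold, and it was called in 6 of 18 alternative settings, with adjusted p from 0.00262 to 0.203. Leaving out 1 library kept the call only for guide 1 KO A, guide 1 KO B or guide 2 KO C, and without any of the other 9 it was lost. Within guide 1 it was -2.21 (SE 0.49, limma adjusted p = 0.0521) and within guide 2 -0.79 (SE 0.49, limma adjusted p = 1.0).

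Sox4, the other transcription factor, varied widely between the KO libraries. Guide 1 KO A, B and C held 13.8, 1.03 and 0.524 RPKM of it, against 8.89, 11.9 and 11.3 RPKM in the WT libraries of that arm. In the guide 2 arm it was at 0.216, 5.88 and 1.87 RPKM in KO A, B and C, against 6.59, 4.37 and 3.04 RPKM in the WT libraries. Guide 1 KO A was the highest of the 12 libraries, whereas 4 of the 6 KO libraries lay below every WT library. The log2 difference over both guides was -1.31 (SE 0.53, limma adjusted p = 0.306), within guide 1 -1.70 (SE 0.75, limma adjusted p = 0.293) and within guide 2 -0.93 (SE 0.75, limma adjusted p = 1.0).

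Cd93, the AA4.1 antigen, was low in all naive libraries. Guide 1 KO A, B and C held 3.40, 0 and 0.595 RPKM, against 1.08, 2.60 and 3.70 RPKM in the WT libraries of that arm. In guide 2 KO A, B and C it was at 0, 0.414 and 0.677 RPKM, against 1.52, 1.43 and 0.684 RPKM in the WT libraries. The guide 2 groups do not overlap, by a margin smaller than the spread within either, and the guide 1 groups overlap through KO A. No read was assigned to Cd93 in guide 1 KO B and guide 2 KO A, which allows up to 0.0280 and 0.0203 RPKM in these libraries. The log2 difference over both guides was -0.74 (SE 0.34, limma adjusted p = 0.384).

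Cd24a, the heat-stable antigen, was among the highest genes of the table, above 99.3% of the listed genes by its mean. The guide 1 KO libraries held 183, 164 and 185 RPKM, against 184, 178 and 254 RPKM in the WT libraries of that arm. In guide 2 KO A, B and C it was at 172, 206 and 259 RPKM, against 178, 200 and 151 RPKM in the WT libraries. The groups overlap in both arms, and the averages differ in opposite directions. The log2 difference over both guides was 0.03, with a 95% interval from -0.23 to 0.30 (limma adjusted p = 0.941).

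**Figure D1:**
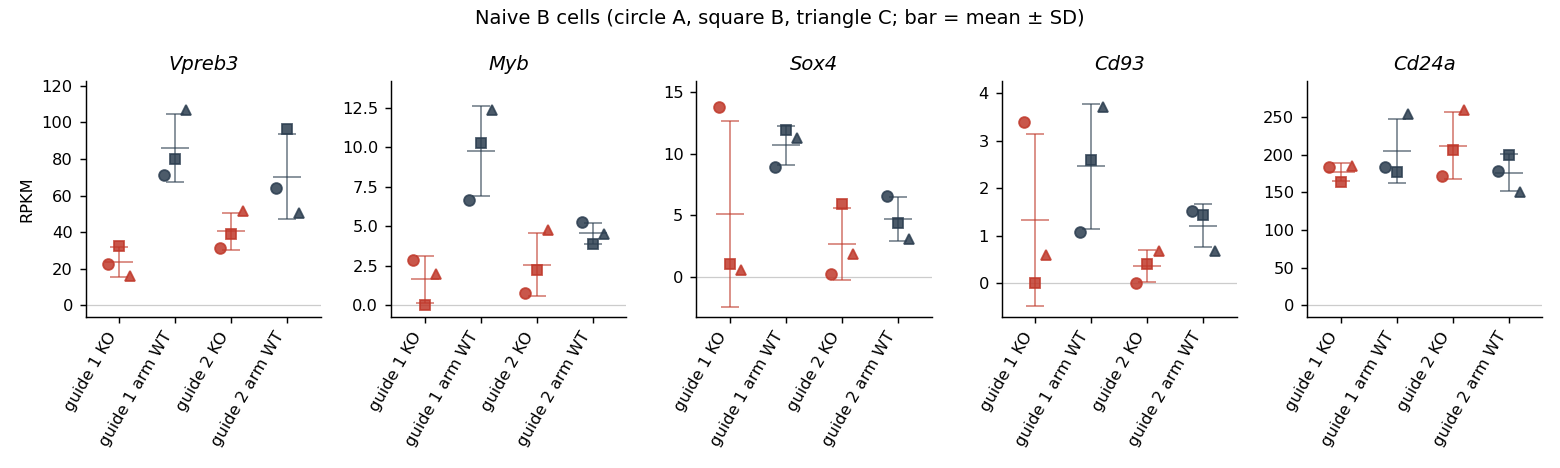
RPKM of the 5 genes in each naive library (vertical axes, a different range for each gene), with KO in red and WT in dark blue for guide 1 and then guide 2; bars show the mean and SD of 3 libraries. Vpreb3 is at 15.8 to 51.4 RPKM in KO libraries and at 50.6 to 107 RPKM in WT libraries, while Sox4 and Cd93 each have 1 high KO library, guide 1 KO A.

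Of the 5 genes, Vpreb3 and Myb had guide 1 KO libraries all below the WT libraries, where 10% of tested genes did, and Cd93 had guide 2 KO libraries all below, where 6.44% did. With guide 2 alone, limma called none of the 5 genes, against 0.0296% of all tested genes called in either direction, and 1 of the 5, Vpreb3, was at an unadjusted p under 0.05. An exact two-sided permutation test for each gene, with labels permuted within each guide arm (400 arrangements, smallest possible p 0.005), gave p = 0.01 for Vpreb3, 0.015 for Myb, 0.07 for Cd93, 0.095 for Sox4 and 0.845 for Cd24a. The difference between the guides was tested as an interaction, guide 2 difference minus guide 1 difference. It was 1.10 for Vpreb3, 1.42 for Myb, 0.77 for Sox4, 0.07 for Cd93 and 0.45 for Cd24a on the log2 scale, with limma adjusted p of 0.918 or more for each. None of the 5 was called and 0% of all genes were, while 479 of all genes and, of the 5, Vpreb3 were at an unadjusted p under 0.05, so these data do not show that the guides differ.

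Without guide 1 KO A, 4 of the 5 genes were called lower over both guides, against 1.76% of all genes called lower. Sox4 then differed by -1.82 (SE 0.34, limma adjusted p = 0.00809) and Cd93 by -1.04 (SE 0.24, limma adjusted p = 0.0264). Vpreb3 then differed by -1.30 (limma adjusted p = 0.00307), Myb by -1.70 (limma adjusted p = 0.00788) and Cd24a by 0.02 (limma adjusted p = 0.960). With guide 1 arm WT A left out as well, the same number was called, with -1.88 for Sox4 and -1.21 for Cd93, against 1.53% of all genes called lower. Within guide 1 and without both libraries, 4 of the 5 were called lower, against 0.819% of all genes called lower, with -2.84 for Sox4, -2.83 for Myb, -1.97 for Vpreb3 and -1.70 for Cd93. Within guide 2, which these 2 libraries enter only through the spread, still none was called, against 0.256% of all genes. Guide 1 KO A, the library in which Sox4 and Cd93 were high, also had the highest level of the erythroid, progenitor, macrophage and monocyte, and T cell lists. The erythroid list, of which 1 of 5 genes has a value, was at 12.96 RPKM there and at 0.1 to 3.301 RPKM in the other naive libraries. The progenitor list (3 of 5) was at 2.91 RPKM against 0.398 to 1.45 RPKM, and the macrophage and monocyte list (5 of 8) at 12.3 RPKM against 5.17 to 11.4 RPKM. Lck, the 1 of 6 T cell genes with a value, was at 31.6 RPKM there against 15.1 to 29.9 RPKM, and none of 7 neutrophil genes has a value here. The endothelial and stromal list was not highest there, at 45.8 RPKM against 60.4 RPKM in guide 2 KO C. The part of such cells in the Sox4 and Cd93 values was not tested.

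**Figure D2:**
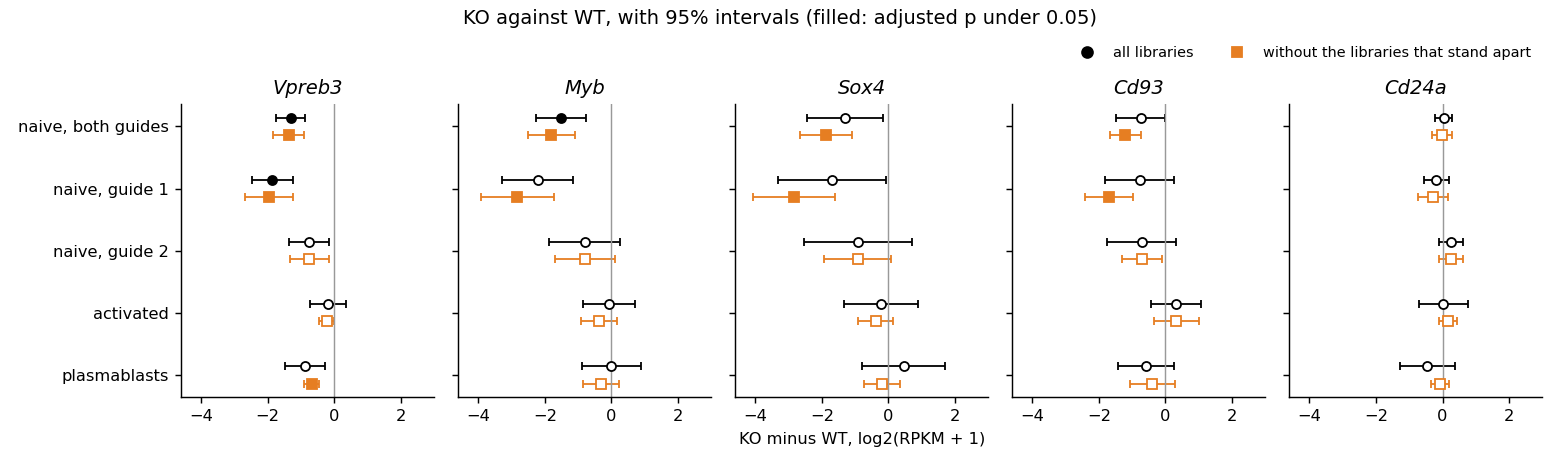
Difference between KO and WT in log2(RPKM + 1) for the 5 genes (horizontal axis) in each comparison (vertical axis), with 95% intervals; black circles use all libraries, orange squares leave out the libraries that stand apart (guide 1 KO A and guide 1 arm WT A; activated KO 3, activated WT 3 and plasmablast KO 3), and filled symbols have an adjusted p under 0.05. With all libraries Vpreb3 (-1.31) and Myb (-1.50) are filled over both guides, and without guide 1 KO A and guide 1 arm WT A so are Sox4 (-1.88) and Cd93 (-1.21).

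The naive WT cells of the guide 1 and guide 2 arms both carried no guide, and the arms were set side by side after the values had been seen. Myb was at 6.68 to 12.4 RPKM in the guide 1 arm and at 3.91 to 5.24 RPKM in the guide 2 arm. Sox4 was at 8.89 to 11.9 RPKM in the guide 1 arm and at 3.04 to 6.59 RPKM in the guide 2 arm. These 2 genes do not overlap between the WT arms, where 8.18% of tested genes had all guide 1 arm libraries above all guide 2 arm libraries, and the other 3 genes overlap. In log2(RPKM + 1), the guide 1 arm was higher by 0.92 for Myb, 1.08 for Sox4, 0.59 for Cd93, 0.31 for Vpreb3 and 0.21 for Cd24a, with a limma adjusted p of 0.999 for each gene. None of the 5 was called, nor was any at an unadjusted p under 0.05, against 0.0493% of all genes called. The guide 2 KO differences, each taken within its own arm, were -0.79 for Myb and -0.93 for Sox4.

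Over the 12 naive libraries the log2 values of Cd93, Myb and Sox4 went together, and those of Vpreb3 went with Myb. This is a description with no test, since the groups, their libraries and their depth are shared by all genes. Pearson's r was 0.85 between Cd93 and Sox4, 0.78 between Cd93 and Myb, 0.72 between Myb and Sox4 and 0.70 between Vpreb3 and Myb. Vpreb3 was less close to Sox4 (r = 0.53) and to Cd93 (r = 0.44). Cd24a had r of 0.21 to 0.42 with the others. Among all other tested genes, the 3 closest to Vpreb3 were Cnp (r = 0.97), Rnase6 (r = 0.96) and Plekho1 (r = 0.95). Closest to Myb were Sp100, Slc30a5 and Cbfb (r = 0.89 to 0.90). Closest to Sox4 was Ywhaq (r = 0.96) and to Cd24a Sla (r = 0.94).

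**Figure D3:**
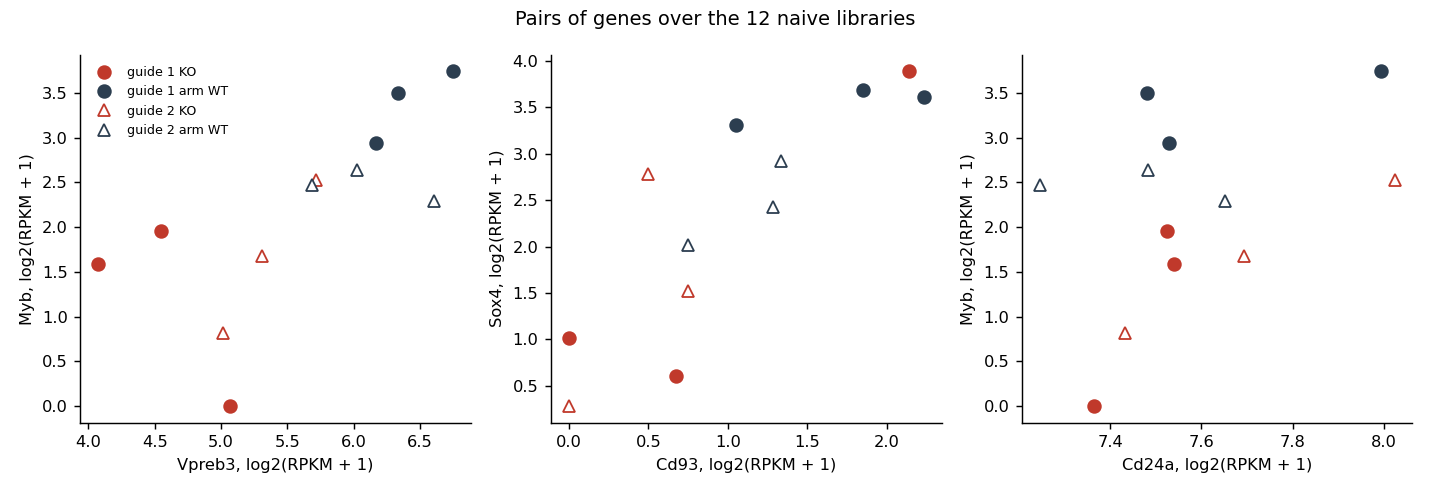
Pairs of the genes over the 12 naive libraries in log2(RPKM + 1), with KO in red and WT in dark blue, filled circles for guide 1 and open triangles for guide 2. Myb follows Vpreb3 (r = 0.70) and Sox4 follows Cd93 (r = 0.85), with guide 1 KO A at the upper right of the second panel, and Cd24a is less close to Myb (r = 0.42).

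Among other early B cell genes, Bach2 and Tifa fell in naive KO cells. Of a list of 29 genes of the pre-B cell receptor, recombination and early B cell factors, 19 were tested in the naive table, and these 2 fell and none rose, against 0.858% of all genes called lower and 1.03% higher. Bach2, a repressor that holds back plasma cell differentiation, averaged 6.93 ± 2.46 RPKM in KO libraries and 17.5 ± 3.54 RPKM in WT libraries (SD, n = 6 each; log2 difference -1.26, limma adjusted p = 0.00561). Tifa, an adaptor of NF-kB signalling, averaged 6.06 ± 2.60 RPKM in KO libraries and 17.1 ± 7.39 RPKM in WT libraries (log2 difference -1.35, limma adjusted p = 0.0128). Lef1, a Wnt pathway factor of B cell precursors, was at 1.02 ± 1.14 RPKM in KO libraries and 4.195 ± 2.14 RPKM in WT libraries and did not pass (log2 difference -1.43, limma adjusted p = 0.0579). Pax5, which holds B cell identity, was at 17.2 ± 2.70 RPKM in KO libraries and 15.4 ± 3.43 RPKM in WT libraries (limma adjusted p = 0.617). Rag1, the recombinase subunit, was at 0.082 to 0.509 RPKM in KO libraries and at 0.015 to 0.242 RPKM in WT libraries, under the filter for testing. Vpreb1, Vpreb2, Igll1, Rag2 and Dntt have no value here, so no pre-B cell receptor or recombination gene of the list was tested. The same holds in culture, where Rag1 has no value either. The median difference of the 19 was -0.13, against -0.02 for all tested genes. Without guide 1 KO A, 4 of the 19 were called lower, with Lef1 and Bmf added, and Blnk was called higher, against 1.76% of all genes called lower and 2.07% higher.

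Genes of mature B cell subsets, in the same libraries, moved in both directions. Of 7 marginal zone genes, 4 rose in naive KO cells (Cr2, S1pr3, Dtx1 and Asb2), against 1.03% of all genes called higher (2.07% without guide 1 KO A), with a median difference of 1.31. The lists were chosen with earlier results of these data known, so such counts are a description. Cr2, complement receptor 2, averaged 228 ± 35.4 RPKM in KO libraries and 108 ± 41.7 RPKM in WT libraries (log2 difference 1.16, limma adjusted p = 0.00493). The summed level of the 7 genes was 416 to 829 RPKM in guide 1 KO libraries against 143 to 251 RPKM in the WT libraries of that arm. In the guide 2 arm it was 443 to 805 RPKM in KO libraries against 268 to 381 RPKM in WT libraries. Of 12 genes of mature B cells, Fcer2a, the CD23 marker of follicular and later transitional cells, and Klf2 fell and Cr2 rose. For this list and those that follow, 0.858% of all genes were called lower (1.76% without guide 1 KO A). Fcer2a averaged 179 ± 62.8 RPKM in KO libraries and 367 ± 54.5 RPKM in WT libraries (log2 difference -1.10, limma adjusted p = 0.0211). Of 8 cycling genes, Mcm5 fell, at 11.1 ± 2.86 RPKM in KO libraries and 18.9 ± 2.76 RPKM in WT libraries, and the median difference was -0.47. The part of a shift between B cell subsets, or of cycling cells, in the Vpreb3 and Myb differences was not tested. Without guide 1 KO A, 5 of the 7 marginal zone genes were called higher, and the calls of mature B cell and cycling genes were the same in number. Of 5 plasma cell genes, Sdc1 fell, at 0.399 ± 0.465 RPKM in naive KO libraries and 2.85 ± 0.845 RPKM in naive WT libraries (limma adjusted p = 0.00313). None was called of the 2 tested relatives of the 5 genes, Mybl2 and Cd52, nor of 7 tested genes of their ligands and partners.

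In culture none of the 5 genes was called in any comparison that used all libraries. Across the 2 tables, which the authors scaled separately so that levels are only set side by side, Vpreb3 and Cd93 had higher group averages in the cultured groups than in naive cells of the same genotype, and Cd24a did too. Vpreb3 averaged 142 ± 25.3 RPKM in activated KO and 162 ± 23.9 RPKM in activated WT libraries, and 77.7 ± 17.4 RPKM in plasmablast KO and 141 ± 0.535 RPKM in plasmablast WT libraries. These 4 groups lay above the naive KO averages of 40.5 ± 10.1 RPKM (guide 2) and 23.6 ± 8.46 RPKM (guide 1), and in the order of the 8 groups by level each overlaps the next, other than plasmablast WT and guide 1 arm WT (85.9 ± 18.5 RPKM). Cd93 averaged 15.7 ± 4.18 RPKM in plasmablast KO and 26.3 ± 17.0 RPKM in plasmablast WT libraries, and 12.2 ± 2.00 RPKM in activated KO and 9.64 ± 1.54 RPKM in activated WT libraries, against at most 2.46 ± 1.32 RPKM in a naive group. From plasmablast WT as the highest to guide 2 KO as the lowest, neighbours overlap except activated WT with guide 1 arm WT, and guide 2 arm WT with guide 2 KO. Cd24a ran from 335 ± 4.05 RPKM in activated KO to 176 ± 24.7 RPKM in guide 2 arm WT libraries, with every neighbour overlapping. Myb was lowest in naive guide 1 KO (1.63 ± 1.48 RPKM) and highest in naive guide 1 arm WT libraries (9.77 ± 2.87 RPKM). Sox4 was lowest in plasmablast WT (0.558 ± 0.516 RPKM) and highest in naive guide 1 arm WT libraries (10.7 ± 1.58 RPKM), and neighbours overlapped throughout for both factors.

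**Figure D4:**
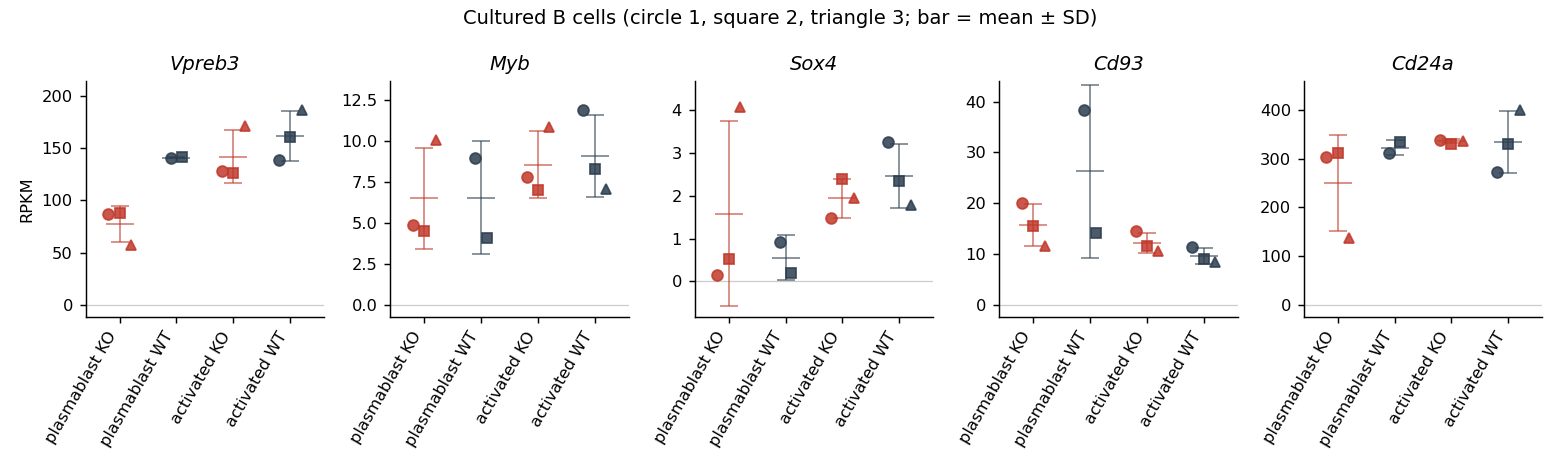
RPKM of the 5 genes in each cultured library (vertical axes, a different range for each gene), with KO in red left of WT in dark blue for plasmablasts and activated cells; bars show the mean and SD, and plasmablast WT has 2 libraries. Vpreb3 is at 57.6 to 88.1 RPKM in plasmablast KO and at 141 RPKM in both plasmablast WT libraries; triangles in KO plasmablasts are the library of 51000 reads.

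In plasmablasts, Vpreb3 was lower in KO than in WT libraries, short of the threshold. Its values were 87.3, 88.1 and 57.6 RPKM in plasmablast KO 1, 2 and 3, against 141 and 141 RPKM in plasmablast WT 1 and 2. The groups do not overlap, as in 5.29% of genes with all KO libraries below all WT libraries, and KO 3 rests on 4 reads against 2264 and 2536 in KO 1 and 2. The log2 difference was -0.88 (SE 0.27, limma adjusted p = 0.609), 0% of all genes were called, and 1 of the 5 genes, Vpreb3, was at an unadjusted p under 0.05 as were 85 of all genes. Without plasmablast KO 3 it was -0.68 (limma adjusted p = 1.0). Without the library labelled activated KO 3 and the library labelled activated WT 3 as well, which lowers the estimated spread, it was again -0.68 (SE 0.11, limma adjusted p = 0.0466), and it was the 1 gene called lower (0.01% of all genes).

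Cd93 in plasmablasts was at 20.0, 15.4 and 11.7 RPKM in KO libraries, against 38.3 and 14.2 RPKM in WT libraries. Myb was at 4.88, 4.51 and 10.05 RPKM in KO libraries, against 8.95 and 4.09 RPKM in WT libraries. For both genes WT 1 is above WT 2 and the KO and WT groups overlap. Sox4 was at 0.152, 0.53 and 4.07 RPKM in KO libraries, against 0.923 and 0.193 RPKM in WT libraries, the highest value resting on 1 read. Cd24a was at 303, 312 and 137 RPKM in KO libraries, against 311 and 333 RPKM in WT libraries, with 18 reads behind the lowest. The log2 differences were -0.58 for Cd93, 0.00 for Myb, 0.45 for Sox4 and -0.45 for Cd24a, with limma adjusted p of 0.609 or more. Without plasmablast KO 3 they were -0.40 for Cd93, -0.32 for Myb, -0.19 for Sox4 and -0.07 for Cd24a.

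In activated B cells the KO and WT libraries overlapped for all 5 genes, where 1.22% of genes had all KO libraries below and 1.91% all above the WT libraries. Vpreb3 was at 128, 126 and 171 RPKM in activated KO 1, 2 and 3, against 139, 161 and 186 RPKM in activated WT libraries. Cd93 was at 14.5, 11.6 and 10.7 RPKM in KO libraries, against 11.4, 8.98 and 8.54 RPKM in WT libraries. Among these, the 2 libraries of the number 3, which go against their labels, are the highest of their group for Vpreb3 and the lowest for Cd93. Cd24a was at 331 to 339 RPKM in KO libraries against 272 to 399 RPKM in WT libraries, Myb at 6.99 to 10.9 RPKM against 7.04 to 11.9 RPKM, and Sox4 at 1.48 to 2.39 RPKM against 1.79 to 3.25 RPKM. The log2 differences ran from -0.23 for Sox4 to 0.31 for Cd93, none was called by limma (adjusted p of 1.0 for each), none was at an unadjusted p under 0.05, and 0% of all genes were called, with 2 at an unadjusted p under 0.05. With activated KO 3, activated WT 3 and plasmablast KO 3 left out, they ran from -0.38 for Myb to 0.33 for Cd93 and none was called, against 0.651% of all genes. The interaction of KO with cell type, plasmablast difference minus activated difference, was -0.68 for Vpreb3 and -0.89 for Cd93, and none of the 5 genes was called (limma adjusted p of 0.816 or more). Of all genes 0% were called for it, and 10 were at an unadjusted p under 0.05. Without those 3 libraries it was -0.45 for Vpreb3 (limma adjusted p = 0.475).

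Between the stages, Cd93 was higher and Sox4 lower in WT plasmablasts than in WT activated cells, which passed the test only where shallow or doubtful libraries were left out. Cd93 was at 38.3 and 14.2 RPKM in plasmablast WT libraries, against 11.4, 8.98 and 8.54 RPKM in activated WT libraries. Sox4 was at 0.923 and 0.193 RPKM in plasmablast WT libraries, against 3.25, 2.35 and 1.79 RPKM in activated WT libraries. The 0.193 RPKM of plasmablast WT 2 rests on 4 estimated reads. Neither gene overlaps, where 21.6% of genes had all plasmablast WT libraries above and 36.8% all below. With all libraries the log2 differences were 1.21 for Cd93 (SE 0.38, limma adjusted p = 0.173) and -1.17 for Sox4 (SE 0.55, limma adjusted p = 0.411), and 0 of the 5 genes were called, against 1.76% of all genes, with 1 at an unadjusted p under 0.05. Without plasmablast KO 3, which enters only through the estimate of the spread, both were called (Cd93 1.21, limma adjusted p = 0.00871; Sox4 -1.17, limma adjusted p = 0.00348), against 33.2% of all genes. Without activated KO 3 and activated WT 3 too, they were 1.14 (limma adjusted p = 0.00935) and -1.32 (limma adjusted p = 0.000786), against 45.9% of all genes. Without plasmablast WT 1, Cd93 differed by 0.53 (limma adjusted p = 0.815).

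In KO cells, Vpreb3 and Cd24a were lower in every plasmablast library than in every activated library, as were 22.8% of genes. None of the 5 was called with all libraries, 1 was at an unadjusted p under 0.05 and 3.44% of all genes were called. The log2 difference was -0.87 for Vpreb3 (SE 0.24, limma adjusted p = 0.0870), -0.51 for Cd24a (limma adjusted p = 0.366), -0.49 for Sox4 (limma adjusted p = 0.538), -0.41 for Myb (limma adjusted p = 0.476) and 0.32 for Cd93 (limma adjusted p = 0.558). The median over all genes was -0.22 here and -0.12 in WT cells. Without plasmablast KO 3, Vpreb3 (-0.67, limma adjusted p = 0.00792) and Sox4 (-1.13, limma adjusted p = 0.00490) were called lower, against 18.3% of all genes, and without the 3 libraries so were they, at -0.53 (limma adjusted p = 0.00218) and -1.13 (limma adjusted p = 0.00354), against 21.3% of all genes. Cd24a differed by -0.13 without plasmablast KO 3 (limma adjusted p = 0.588), a library with 18 reads of it. The KO and WT comparisons share no library, but share 1 estimate of the spread.

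Of the early B cell list, 21 genes were tested in culture, and in WT plasmablasts Bach2, Ebf1, Siglecg and Spib fell and Spn rose relative to activated cells, against 1.43% of all genes called lower and 0.33% higher. The same 5 genes were called in the same directions in KO cells, against 2.67% called lower and 0.771% higher. Without plasmablast KO 3, 13 of the 21 fell and 1 rose in WT cells, against 21.3% of all genes called lower and 12% higher. In KO cells 12 then fell and 1 rose, against 18.3% called lower and 12.1% higher. Without activated KO 3, activated WT 3 and plasmablast KO 3, 12 fell and 3 rose in WT cells, against 30.5% called lower and 15.4% higher, and 12 fell and 1 rose in KO cells, against 21.3% called lower and 12% higher. Between KO and WT libraries, limma called 0 of the 21 in activated cells and 0 in plasmablasts, where 2 and 85 of all genes were at an unadjusted p under 0.05. Spib, an ETS factor of B cells, was at 0.281 to 0.464 RPKM in plasmablast WT libraries and at 28.6 to 55.6 RPKM in activated WT libraries (log2 difference -5.02, limma adjusted p = 0.00222). Ebf1, a factor that specifies B cells, was at 3.24 to 4.88 RPKM in plasmablast WT libraries and 10.4 to 17.8 RPKM in activated WT libraries (log2 difference -1.55, limma adjusted p = 0.0312). Spn, the surface protein CD43, was at 13.0 to 16.3 RPKM in plasmablast WT libraries and 3.745 to 4.201 RPKM in activated WT libraries (log2 difference 1.64, limma adjusted p = 0.0273). The median of the 21 was -0.53, against -0.12 for all genes. The fall was not particular to this list. The 12 tested genes of mature B cells had a median of -1.23 between the WT stages, with 5 called lower and 0 higher. Without plasmablast KO 3, 10 of these 12 were called lower. Sdc1, which encodes CD138, the marker of the plasmablast sort, was at 27.5 to 34.1 RPKM in plasmablast WT libraries and 0.226 to 0.473 RPKM in activated WT libraries. Over the 10 cultured libraries other than plasmablast KO 3, Myb and Sox4 went together (r = 0.83), and Cd93 had r of -0.44 with Vpreb3 and -0.55 with Sox4, as a description with no test.

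**Figure D5:**
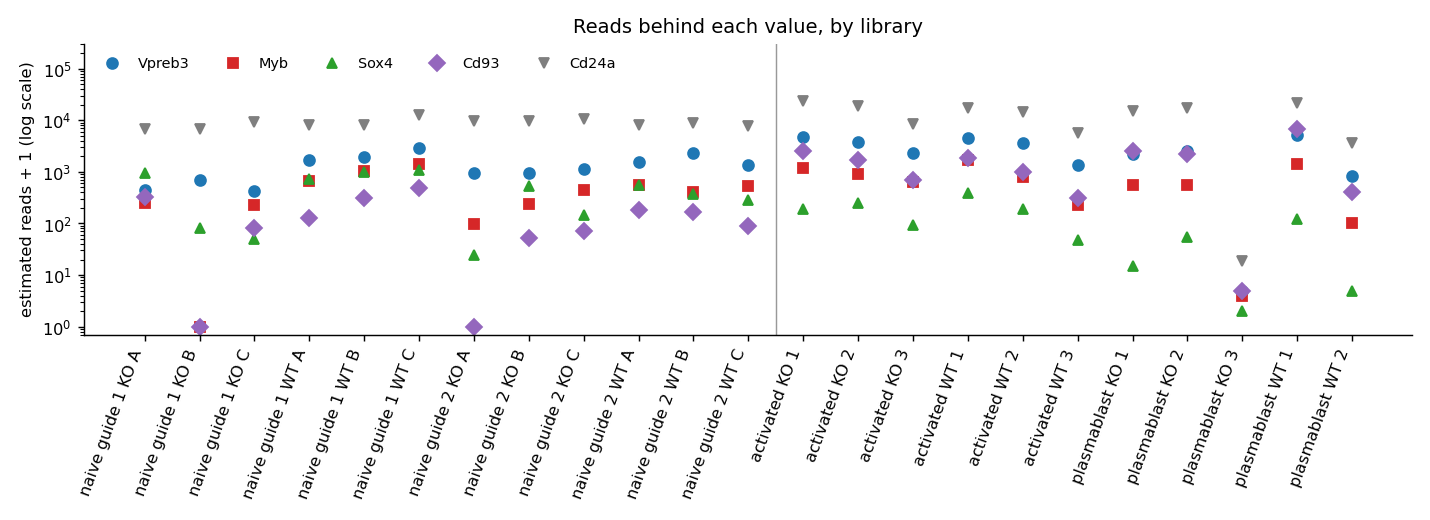
Estimated reads plus 1 (logarithmic vertical axis) behind each value of the 5 genes, by library, naive libraries left of the grey line and cultured libraries right of it. In plasmablast KO 3 the 5 values rest on 1 to 18 reads, and Myb in naive guide 1 KO B and Cd93 in guide 1 KO B and guide 2 KO A rest on none.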

How the data were processed

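RNA of 23 libraries was analysed from 2 tables of RPKM, which the authors computed and deposited rounded to 3 decimals. The submitters' processing notes name STAR and mm10; aligner version, counter and annotation are not given in the sources used here. Groups came from the labels. Reads per library were estimated from the steps between low values, which came out within 0.2 of whole multiples for 100% of them. Depth differs between cultured libraries. The 95% intervals come from the limma fit and measure the spread between libraries, while the limits of 3 reads for zeros cover counting error only.

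Tests used limma 3.58.1 (R 4.3.3) with a trend, two-sided, on log2(RPKM + 1). A gene entered when 2 or more libraries of its table reached 1 RPKM (10137 naive, 9986 cultured), with 1 mean per group in 1 fit per table and 10 contrasts. The difference over both guides is the mean of those within the arms. Adjusted p-values follow Benjamini and Hochberg over all tested genes. Tests stayed within a table, since the tables were made separately. The fit was tested on simulated data. Alternatives were a pseudocount of 0.1, no filter, median centring, array weights, a replicate block and leaving out libraries.

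All 5 genes are named, with Irf8 and Thy1 as checks, the called genes of each list with up to 4 more, and up to 3 genes closest to each by Pearson's r; that for Cd93 is not reported here. The genes and lists were chosen with earlier results of these data known. Lists are described by counts and medians.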

Additional observations from a re-analysis of the deposited data

Results flagged for a closer look

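In the 6 naive KO libraries of both guides, Cd93 was at 3.399 RPKM in guide 1 KO A, and the gap to the next KO library was 0.80 of the whole range. In the 6 naive WT libraries, Thy1 was at 4.926 RPKM in guide 1 arm WT A, with a gap of 0.99 of the range. In all, 14 sets of a gene and a group were examined for such a library, and chance marks about 1 set in 20.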

How the results depend on the processing

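Of 850 values of single genes under an alternative, 783 kept their direction and side of the threshold, 24 newly passed it, 13 no longer did and 30 changed sign; the cause was not tested. Counts over all libraries stand first. Over both guides in naive cells, 191 genes and 2 of the 5 were called; 527 and 4 with array weights, 340 and 4 without guide 1 KO A and guide 1 arm WT A, and 73 to 388 and 1 to 4 with 1 library left out. Of the 5, 1 was called with a pseudocount of 0.1, with no filter and with the replicate block. Vpreb3 was called in all 18 alternatives, with adjusted p from 0.000369 to 0.0293. With guide 1, 113 genes and 1 of the 5 were called; 60 genes with a pseudocount of 0.1, 231 and 3 with array weights, 47 genes with the replicate block, 181 and 4 without both libraries, 2 of the 5 with median centring, and 0 to 372 and 0 to 3 with 1 left out. With guide 2, 3 genes were called; 0 with a pseudocount of 0.1 and with the replicate block, 70 with array weights, 26 without both libraries and 0 to 35 with 1 left out. Between the WT arms, 5 genes were called, and 9 without both libraries.

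Without activated KO 3, activated WT 3 and plasmablast KO 3, 65 genes were called in activated cells instead of 0, 7 and 1 of the 5 in plasmablasts instead of 0, 4580 and 2 of the 5 between WT stages instead of 176, 3326 and 2 of the 5 between KO stages instead of 344, and 3 for the interaction instead of 0. With 1 library left out, these were 0 to 3319 genes and 0 to 2 of the 5 between WT stages and 39 to 3037 and 0 to 2 between KO stages, where the block gave 192. The highest counts came without plasmablast KO 3. Over both guides the count of genes moved by over 1.5 times without any of 10 of the 12 libraries, all but guide 1 KO C and guide 2 KO C, rising without guide 1 KO A (388) and guide 1 KO B (384) and falling without the others.

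Signs changed only for values that were not called. Cd24a in naive cells (0.03) was -0.015 without both libraries and -0.045 to 0.11 with 1 left out, and between WT stages (-0.03) it was 0.14 with median centring, 0.10 without the 3 libraries and -0.17 to 0.10 with 1 left out. With 1 left out, the guide interaction of Cd93 was -0.40 to 0.67, in activated cells Cd24a was -0.11 to 0.16 and Myb -0.24 to 0.12, and Myb between WT stages was -0.95 to 0.012. In plasmablasts, Cd93 was -1.26 to 0.10, Myb -0.49 to 0.48 and Sox4 -0.19 to 0.88, with -0.19 for Sox4 without the 3 libraries. The culture interaction of Myb (0.07) was -0.047 with the replicate block and -0.42 to 0.55 with 1 left out.

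Same-numbered libraries correlated at r from -0.243 to 0.254 after group means were removed, 5 of 16 above any other number. With so few libraries in a group, deviations from its mean are tied to each other. This check therefore cannot decide whether the numbers pair the samples. The main fit took no pairing, and the replicate block is given as an alternative. Array weights did not converge in the cultured table and were not used there, and the WT arms allow no block. Where 1 plasmablast WT library is left, it is assumed to vary like the other groups. Depth limits all 5 genes in plasmablast KO 3 above all, with 4 reads each for Vpreb3 and Cd93, 3 for Myb, 1 for Sox4 and 18 for Cd24a.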
